A study of Mus musculus with 4 samples.

Results

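The transcripts described here are those of Spp1, Ibsp, Dmp1 and Mepe, 4 genes of the SIBLING family (small integrin-binding ligand, N-linked glycoprotein), chosen by name and measured as 4 of the 31053 gene rows of a single-cell count table. The cells came from a male mouse at postnatal day 6 (P6) of genotype Col10a1Cre;Rosa26-Tdtomato;Irx3 +/Δ;Irx5 +/-, the heterozygous control of an Irx3/5 cross. Its tibiae, without the secondary ossification centres, were digested and pooled, and the 4 sequencing entries hold 1 library of 1 animal. The study asked how hypertrophic chondrocytes (HCs) become osteoblasts, and Col10a1-driven Cre switched on a tdTomato reporter in HCs and in the cells that descend from them. With 1 animal there was no replicate, so levels are given with 95% intervals that cover counting error only, and no test was made.

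SIBLING proteins are acidic, phosphorylated, secreted proteins of mineralized matrix, and most carry an RGD sequence that integrins bind. Spp1 encodes osteopontin, which restrains crystal growth and anchors cells, osteoclasts among them, to bone, and which macrophages and many other cells secrete as a cytokine. Ibsp encodes bone sialoprotein, a nucleator of hydroxyapatite found at sites of new mineral. Dmp1 encodes dentin matrix protein 1, best known from osteocytes, where its loss raises FGF23 and wastes phosphate. Mepe encodes matrix extracellular phosphoglycoprotein, also an osteocyte product, whose acidic C-terminal peptide inhibits mineralization. Dspp, the remaining member of the family, is mainly a tooth gene and had 10 UMIs (unique molecules counted) in the whole set of cells.

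The 4 genes lie in 1 cluster on mouse chromosome 5, all on the + strand (GRCm38, GENCODE M21). In order they are Dspp (chr5:104170712-104180127), Dmp1 (chr5:104202613-104214102), Ibsp (chr5:104299171-104311469), Mepe (chr5:104325329-104338611) and Spp1 (chr5:104435118-104441050). The stretch from Dspp to Spp1 spans 270.3 kb, and no other protein-coding gene lies between them. The flanking genes had other patterns of level by cell type: Sparcl1, which encodes a SPARC-like matrix glycoprotein, was highest in pericyte-like cells (598 CPM, counts per 1000000 UMIs), and Pkd2, which encodes a cation channel, in fibroblast-like cells (125 CPM). Spp1 overlaps the gene model Gm42793 on the same strand, which has no row in the count table.

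The 150 bases upstream of each RefSeq transcription start are shown because the members share a locus yet differ in the cells that hold them. All 4 genes were found in the RefSeq promoter table (build GRCm38.p6, + strand, written 5′ to 3′). Where a gene had several windows, the window nearest to the GENCODE start was taken, and the Ibsp GENCODE start lies 116 bases upstream of the RefSeq start used, so that part of its window is transcribed in the GENCODE model. Capitals mark ATTGG, which is a CCAAT box read on the other strand, and ACCACA or its reverse complement TGTGGT, the core bound by RUNX factors.
Dmp1, chr5:104202467-104202616: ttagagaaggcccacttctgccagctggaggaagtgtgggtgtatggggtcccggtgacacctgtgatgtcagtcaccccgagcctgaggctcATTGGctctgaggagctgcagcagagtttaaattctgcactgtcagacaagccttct
Ibsp, chr5:104299137-104299286: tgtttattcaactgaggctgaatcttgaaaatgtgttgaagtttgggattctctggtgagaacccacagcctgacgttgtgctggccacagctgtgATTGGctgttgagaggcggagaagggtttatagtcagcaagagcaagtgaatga
Mepe, chr5:104325179-104325328: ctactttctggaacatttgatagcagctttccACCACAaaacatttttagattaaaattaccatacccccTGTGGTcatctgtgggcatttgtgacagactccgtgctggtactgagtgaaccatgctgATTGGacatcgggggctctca
Spp1, chr5:104434961-104435110: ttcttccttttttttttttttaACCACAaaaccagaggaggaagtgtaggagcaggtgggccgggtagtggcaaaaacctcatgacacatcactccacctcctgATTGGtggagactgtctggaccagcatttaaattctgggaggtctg
ATTGG stood in all 4 windows, 57 to 53 bases before the start in Dmp1, 54 to 50 in Ibsp, 46 to 42 in Spp1 and 21 to 17 in Mepe. It was present on either strand in 24.5% of the 32851 windows of the same length in the table. The longer TGATTGG, which contains it, was in the Ibsp, Mepe and Spp1 windows and in 5.71% of all. ACCACA was found in the Spp1 window and at 2 sites in the Mepe window, against 8.4% of all windows. TTTAAA lay 31 to 26 bases before the Dmp1 start and 20 to 15 before the Spp1 start (6.75% of all windows), whereas the Ibsp window held TTTATA, the reverse complement of TATAAA, 28 to 23 bases before the start (7.57%). These motifs were picked after the sequences had been read, and both strands were searched.

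After filtering, 8256 of 14181 barcodes were kept as cells, with a median of 13957.5 UMIs, and 18 classes of cells were named from marker genes that included none of the 4 members. The members were also left out of the genes used to cluster the cells. Names carry "-like" because they rest on markers, and 786 cells stayed unnamed. Of the fixed markers, at least 10 CPM was reached by 5 of 5 for HCs (Col10a1 9536 CPM) and 8 of 8 for immature osteoblasts. It was reached by 8 of 8 for mature osteoblasts (Bglap 10156 CPM) and 8 of 10 for osteoclasts, where Oscar and Calcr fell short. A name required at least 3 markers at this level, so these counts are in part set by the naming. The level does not tell classes apart by itself, since Col10a1 also passed it in osteoclast-like cells (10.5 CPM). The HC-like class held 145 cells, the pre-HC-like class 373, the immature osteoblast-like class 602, the mature osteoblast-like class 441 and the osteoclast-like class 166. A level is compared between cell types for the same gene and not between genes.

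The 3 abundant members were concentrated in the chondro-osteogenic cells, each with its own pattern (plot of levels by class). Spp1 was high in 3 classes at once, the HC-like, the immature and the mature osteoblast-like cells. Summed over each class, Ibsp was high in mature osteoblast-like and HC-like cells and lower in immature osteoblast-like cells. The median HC-like cell was nonetheless below the median immature osteoblast-like cell. Dmp1 and Mepe were found almost wholly in mature osteoblast-like cells. Of the UMIs of each gene in the cells kept, the mature class alone held 39.4% for Spp1, 68.6% for Ibsp, 83.6% for Dmp1 and 90.3% for Mepe. The HC-like class, 1.76% of the cells, held 17.4% of Spp1 and 16.5% of Ibsp.

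**Figure D1:**
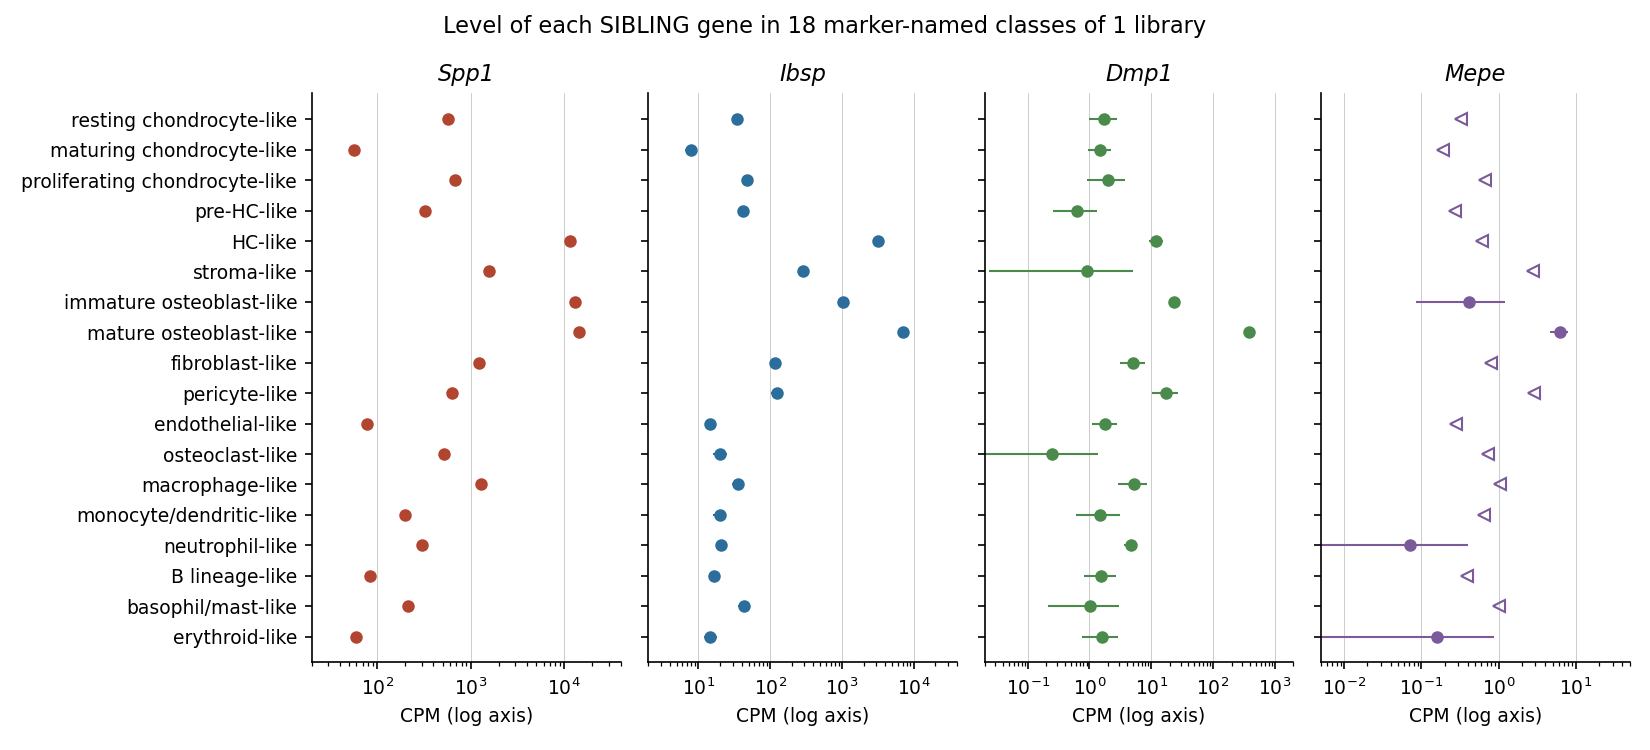
Level of each gene (CPM, log axis) in 18 marker-named classes of the library; points are UMIs summed over the class, bars are 95% Poisson intervals and open triangles mark classes with no UMI, drawn at the level of 3 counts. Spp1 peaked in mature (14402 CPM), immature (12930.1) and HC-like (11632) cells, and Dmp1 was highest in mature osteoblast-like cells (388 CPM).

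Spp1, the osteopontin gene, measured 14402 CPM (14324 to 14480.1) in mature osteoblast-like cells, 12930.1 CPM (12847 to 13013) in immature osteoblast-like cells and 11632 CPM (11537 to 11728) in HC-like cells. The order of these 3 was not stable: the mature class was highest in 2 of 7 clusterings of the cells, and in the others the HC-like or the immature class was. Far below came stroma-like cells at 1564 CPM, macrophage-like cells at 1283 CPM and fibroblast-like cells at 1213 CPM. Spp1 fell to 55.9 CPM in maturing chondrocyte-like cells and 59.3 CPM in erythroid-like cells, the 2 lowest classes, whose intervals overlap. The erythroid-like level serves here as the background, since these cells are not known to make the protein. Between these ends lay proliferating chondrocyte-like (684 CPM), pericyte-like (629), resting chondrocyte-like (571), osteoclast-like (514) and pre-HC-like cells (323 CPM). Most of these sums rest on few cells. In the same order, the 5 highest cells held 93.7%, 87.6%, 55.6%, 28.8% and 86.9% of the Spp1 UMIs of these classes. The median cell had 30.8, 66.6, 58, 199.8 and 28 CPM. The blood and vessel classes had 298 CPM in the neutrophil lineage, 215 in basophil- or mast-like, 196 in monocyte- or dendritic-like, 84.7 in B-lineage and 78.5 CPM in endothelial-like cells. Of the 17 pairs of neighbours in the order of Spp1 levels, 6 had overlapping counting intervals.

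Ibsp, the bone sialoprotein gene, was highest in mature osteoblast-like cells at 7148 CPM (7093 to 7204) and remained so in 7 of 7 clusterings. HC-like cells followed at 3152 CPM (3103 to 3202) and immature osteoblast-like cells at 1038 CPM (1015 to 1062). The level in HC-like cells was thus 3.04-fold that of immature osteoblast-like cells, while the mature class stood 2.27-fold above HC-like cells. The range of that last difference over the other clusterings and settings was wide, from -2.36 to -0.78 on the log2 scale (HC-like over mature). The 3.04-fold difference was not among the ratios tried in other settings. It rests on few cells, since 5 of the 145 HC-like cells held 46.9% of their Ibsp UMIs. The median cell had 318 CPM in HC-like and 427 CPM in immature osteoblast-like cells, the opposite order to the sums. Stroma-like cells had 287 CPM, pericyte-like cells 123 CPM and fibroblast-like cells 118 CPM. The other chondrocyte-like classes had 47.2 (proliferating), 41.6 (pre-HC-like) and 34.5 CPM (resting). Every class not yet named was below 50 CPM, and the lowest levels were 14.7 CPM in erythroid-like and 7.79 CPM in maturing chondrocyte-like cells. Neighbouring classes overlapped in 10 of 17 pairs.

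Dmp1, the osteocyte-associated member, measured 388 CPM (375 to 401) in mature osteoblast-like cells and 23.2 CPM (19.8 to 27) in immature ones. The mature class was again highest in 7 of 7 clusterings. HC-like cells had 12.1 CPM (9.26 to 15.6), from 60 UMIs in 8 cells, and pericyte-like cells 17.1 CPM. Osteoclast-like cells held 1 UMI in all. Below the HC-like class every level lay between 0.244 and 5.17 CPM, and 15 of 17 neighbouring pairs overlapped.

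Mepe, whose protein restrains mineralization, was close to the limit of detection, with 62 UMIs in 23 of the 8256 cells. Mature osteoblast-like cells held 56 of them in 17 cells at 6.19 CPM (4.67 to 8.03), and immature osteoblast-like cells held 3. A cell with 17 UMIs and another with 14 made up much of the total. All 17 mature osteoblast-like cells with Mepe also had Spp1 and Ibsp, and 12 of them had Dmp1. In the whole mature class 99.1% of cells had Spp1, 98.2% Ibsp and 56.7% Dmp1, so this overlap is not particular to cells with Mepe. None of the 145 HC-like cells had a Mepe UMI, where 3 counts would have been 0.606 CPM. The lower end of the counting interval for the mature class over HC-like cells was 8.02-fold. The mature class was highest for Mepe in 5 of 7 clusterings.

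Shares of cells with a transcript were compared at an equal depth of 5000 UMIs drawn from each cell, without the cells that had fewer. Spp1 was seen in 96.1% of mature, 93% of immature and 63.2% of HC-like cells (99.1%, 95.7% and 88.3% before thinning), against 21.6% of erythroid-like cells (48.4% before). Median depths in these classes were 18409, 10629, 34662 and 12492 UMIs. Ibsp was seen in 95%, 69.1% and 60.4% of the same 3 classes after thinning and in 5.78% of erythroid-like cells. For Dmp1 the shares were 36.7%, 7.68% and 2.08%, the last with an exact binomial interval of 0.432 to 5.97% that includes the erythroid-like 1.07%. Spp1 and Ibsp were found together in 405 of 441 mature, 384 of 586 immature and 70 of 144 HC-like cells. Neither was found in 36 of the HC-like cells. The thinned Ibsp shares of HC-like (51.9 to 68.5%) and immature osteoblast-like cells (65.2 to 72.8%) overlapped, and the shares before thinning were 77.9% and 78.9%, although the level was higher in HC-like cells.

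**Figure D2:**
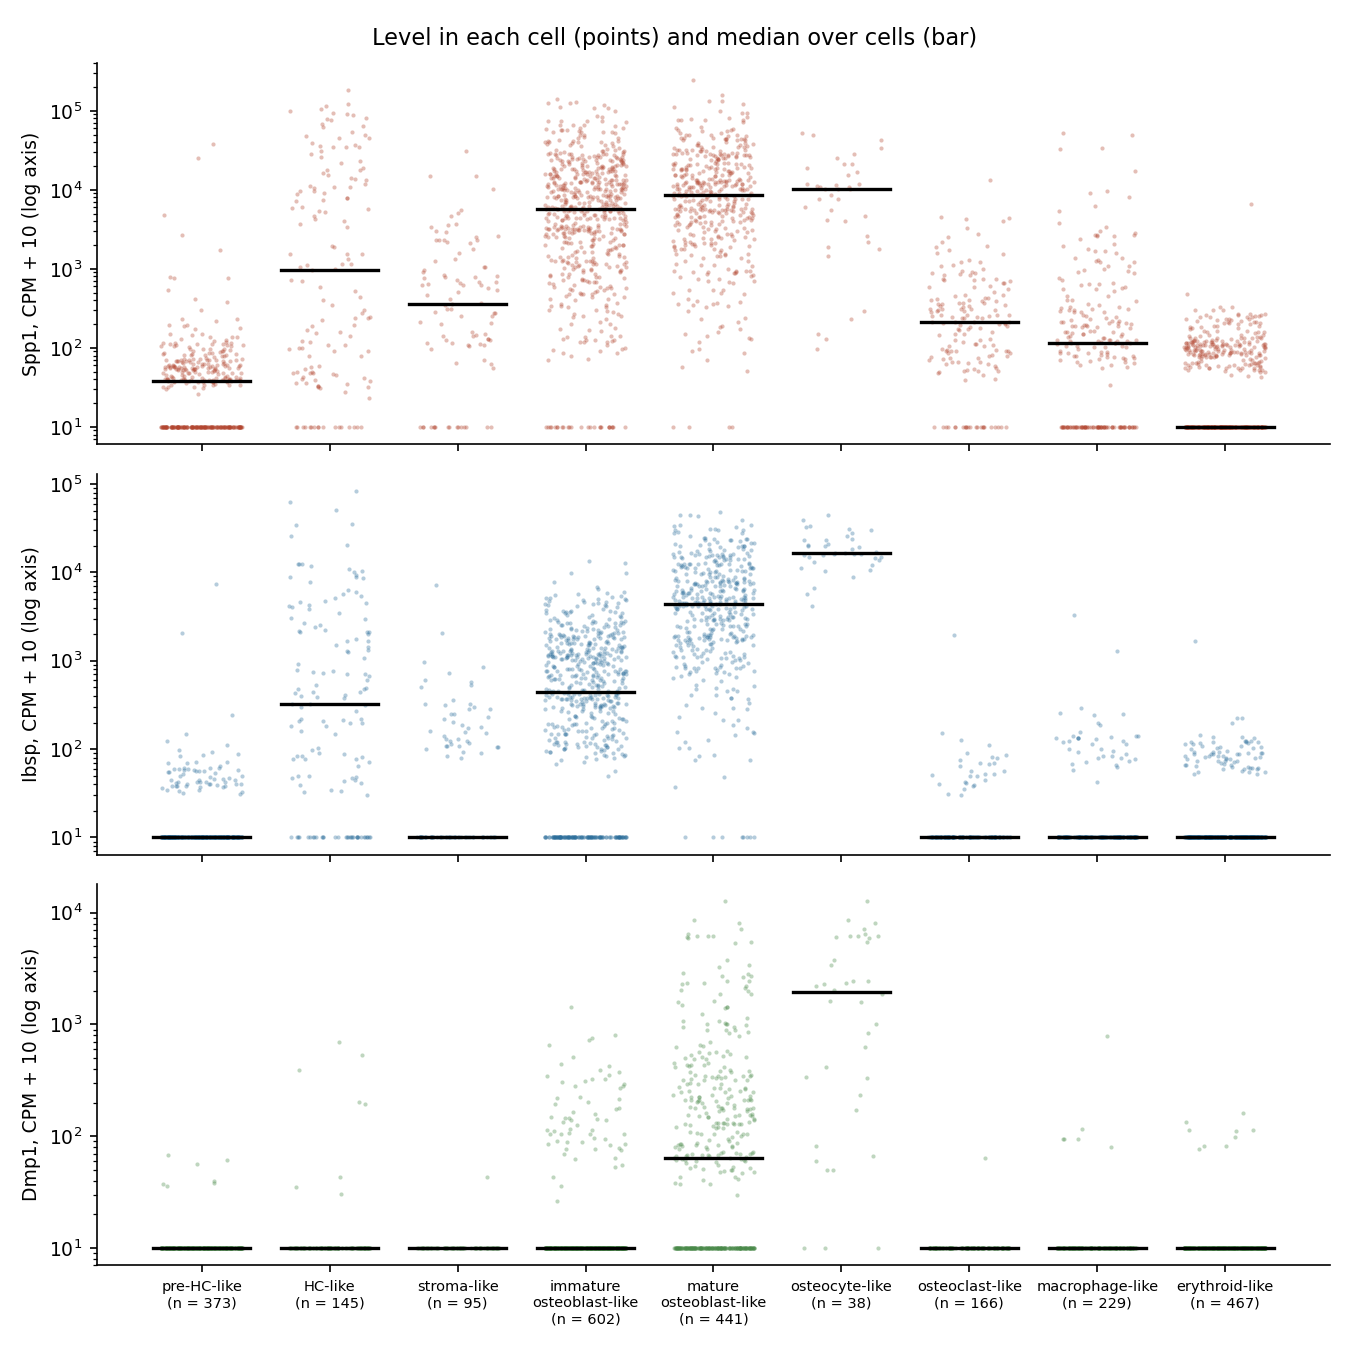
Level in each cell (points, CPM + 10, log axis) of Spp1, Ibsp and Dmp1 in 8 classes and in the osteocyte-like sub-cluster, whose 38 cells all belong to the mature class; black bars are medians over cells and n is the number of cells. HC-like cells ranged from no Spp1 to 185248 CPM around a median of 958 CPM, while mature osteoblast-like cells lay around 8635 CPM.

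Across chondrocyte hypertrophy Spp1 and Ibsp went from near background to high levels. Spp1 was 323 CPM in pre-HC-like and 11632 CPM in HC-like cells, a 36-fold difference, and Ibsp was 41.6 and 3152 CPM, a 75.8-fold difference. Of 2982 genes with enough counts in these classes, 15% were at least 2-fold higher in HC-like cells, and both members that had enough counts, Spp1 and Ibsp, were among them. Dmp1 and Mepe were too low to be counted. In pre-HC-like cells the sum rested on few cells: 2 of 373 cells held 77.5% of the Spp1 UMIs, and the thinned share with Spp1, 16.4%, was below that of erythroid-like cells. The level in most pre-HC-like cells is therefore read as background.

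Within the HC-like class both genes varied over several orders of magnitude. Spp1 reached 10000 CPM in 43 of 145 cells, which held 91.2% of the Spp1 UMIs of the class, and 17 cells had none. Ibsp reached 10000 CPM in 14 cells, which held 68.9% of its UMIs, and was not found in 32. The median HC-like cell had 958 CPM of Spp1 and 318 CPM of Ibsp, far below the level of the class.

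Most of the high HC-like cells had Mmp13, the collagenase of terminal hypertrophy. Of the 43 cells with at least 10000 CPM of Spp1, 29 had at least 1000 CPM of Mmp13, 8 had 100 to 1000 CPM and the other 6 had less. In the 29 HC-like cells with at least 1000 CPM of Mmp13, Spp1 measured 50315 CPM and Ibsp 14455 CPM. In the 72 cells below 10 CPM they measured 2821 and 734 CPM. Dmp1 was 69.7 CPM in the former and had no UMI in the latter, where 3 counts would have been 1.17 CPM. Across all chondrocyte-like cells binned by Col10a1, the sums did not follow one direction: Spp1 was 534 CPM below 100 CPM of Col10a1, 6661 from 100 to 1000, 2637 from 1000 to 5000, 8067 from 5000 to 20000 and 9413 CPM above. Ibsp in the same bins was 56, 2484, 1103, 1662 and 2109 CPM. The median cell had 36.1, 47 and 30.3 CPM of Spp1 in the lower 3 bins and 709 and 1141 CPM in the upper 2.

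Clustering the HC-like cells again gave an Mmp13-led sub-cluster of 40 cells, 35 of them reporter-positive, with 3566 CPM of Mmp13 and 7823 CPM of Col10a1. Its Spp1 was 39519 CPM, its Ibsp 10954 CPM and its Dmp1 51.8 CPM, against 3279.6, 815 and 0.263 CPM in the other 105 HC-like cells. Osteoblast genes were higher in it too: Col1a1 was 651 CPM against 60.2 to 102 CPM in the other HC-like sub-clusters, Phex 60.5 against 3.25 to 11.9 CPM, and Ifitm5 48.2 against at most 31.4 CPM. Their part in the member levels was not tested. Of 3184 genes with enough counts, 7.41% were at least 2-fold higher in this sub-cluster, Spp1 (12-fold) and Ibsp (13.4-fold) among them. Its Spp1 was also 2.74-fold and its Ibsp 1.53-fold that of mature osteoblast-like cells, whereas its Dmp1 was lower, at 1 part in 7.5. The Ibsp difference rests on few cells, since 5 of the 40 held 58.5% of its Ibsp UMIs. Medians over cells were near equal for Ibsp, at 4559 and 4386 CPM, and apart for Spp1, at 34652.5 and 8635 CPM. The remaining sub-clusters were led by haemoglobin genes (51 cells, Spp1 3447 CPM), by neutrophil genes (23 cells, 5485 CPM) and by chondrocyte genes (31 cells, 1552 CPM), and the part of RNA from blood cells in their levels was not tested. In the last 2 of these, 5 cells held 99.5% and 94.5% of the Spp1 UMIs. From its markers, only the Mmp13-led sub-cluster kept the HC name when clustered again. The sub-clusters of 51 and 23 cells took no name, although their Col10a1 was higher than in the Mmp13-led cells, at 10621 and 17508 CPM. Their median cells had 958 and 31.8 CPM of Spp1. The 31 cells took the pre-HC name, with 61758 CPM of Col2a1 and 2078 CPM of Pth1r. The HC-like class therefore includes cells with pre-HC markers, and its differences from pre-HC-like cells were not measured without them.

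For HC-like against mature osteoblast-like cells, Spp1 differed by -0.31 on the log2 scale (-0.32 to -0.29) and Ibsp by -1.18. The sign for Spp1 changed between settings, from -0.82 without cells above 5% mitochondrial UMIs to 0.27 when the members were kept for clustering. In these settings the cells of both classes were drawn again, and the cause of the change was not tested. Without the 5 cells with most UMIs of the gene in each class the differences were -0.59 for Spp1 and -1.96 for Ibsp. Dmp1 was 32-fold higher in mature osteoblast-like cells.

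In the osteoblast lineage the members came up at different steps. From stroma-like to immature osteoblast-like cells Spp1 was 8.27-fold and Ibsp 3.62-fold higher, both past the 2-fold line that 2.24% of 3485 genes passed. These 2 differences were not among the ratios tried in other settings, and they depend on the border between the classes. When clustered again, the sub-cluster named stroma held 75 stroma-like and 76 immature osteoblast-like cells. Its Spp1 was 4265 CPM and its Ibsp 486 CPM, against 1564 and 287 CPM in the stroma-like class. From immature to mature osteoblast-like cells Spp1 differed by 0.16 on the log2 scale, with a sign that turned in 5 alternatives. Over the same step Ibsp was 6.88-fold and Dmp1 16.7-fold higher, and 6.7% of 3211 genes were at least 2-fold higher. The Dmp1 difference, 4.06 on the log2 scale, ranged from 2.47 to 4.31 over the alternatives. For Mepe the mature class was 14.8-fold higher (interval 4.82 to 74.1), a value that rests on 3 UMIs in the immature class and turned sign in 2 alternatives.

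Clustering the 1138 stroma-like and osteoblast-like cells again separated peaks of the individual genes (plot of sub-clusters). The highest Spp1 was in a sub-cluster led by Il11 and Fmod (61 cells, 30921 CPM) and in another led by Wisp2 and Mmp13 (112 cells, 28647 CPM). Their Ibsp was 4159 and 2059.7 CPM. Both took the immature name from their markers when clustered again, but 52 of the 61 Il11-led cells belonged to the mature class, and 111 of the 112 Wisp2-led cells to the immature class. The Il11-led cells had 28186 CPM of Col1a1 and 2395 CPM of Bglap, between the immature (4073 and 225) and the mature class (62939.9 and 10156 CPM). The highest Ibsp was in the osteocyte-like sub-cluster (19272 CPM) and in a mature sub-cluster led by Prss50 and Nupr1 (107 cells, 9842 CPM), whose Spp1 was only 8341 CPM. A cycling mature sub-cluster had 13843 CPM of Spp1, 6823 of Ibsp and 224 of Dmp1. Of the sub-clusters named osteoblast-like, the lowest Ibsp was in cells led by Aspn and Postn, periosteum-associated matrix genes (180 cells, 417 CPM, with Spp1 at 9112 CPM). A sub-cluster of 34 cells that took the pericyte name was lower, at 246 CPM, and 33 of its cells belonged to the immature class.

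**Figure D3:**
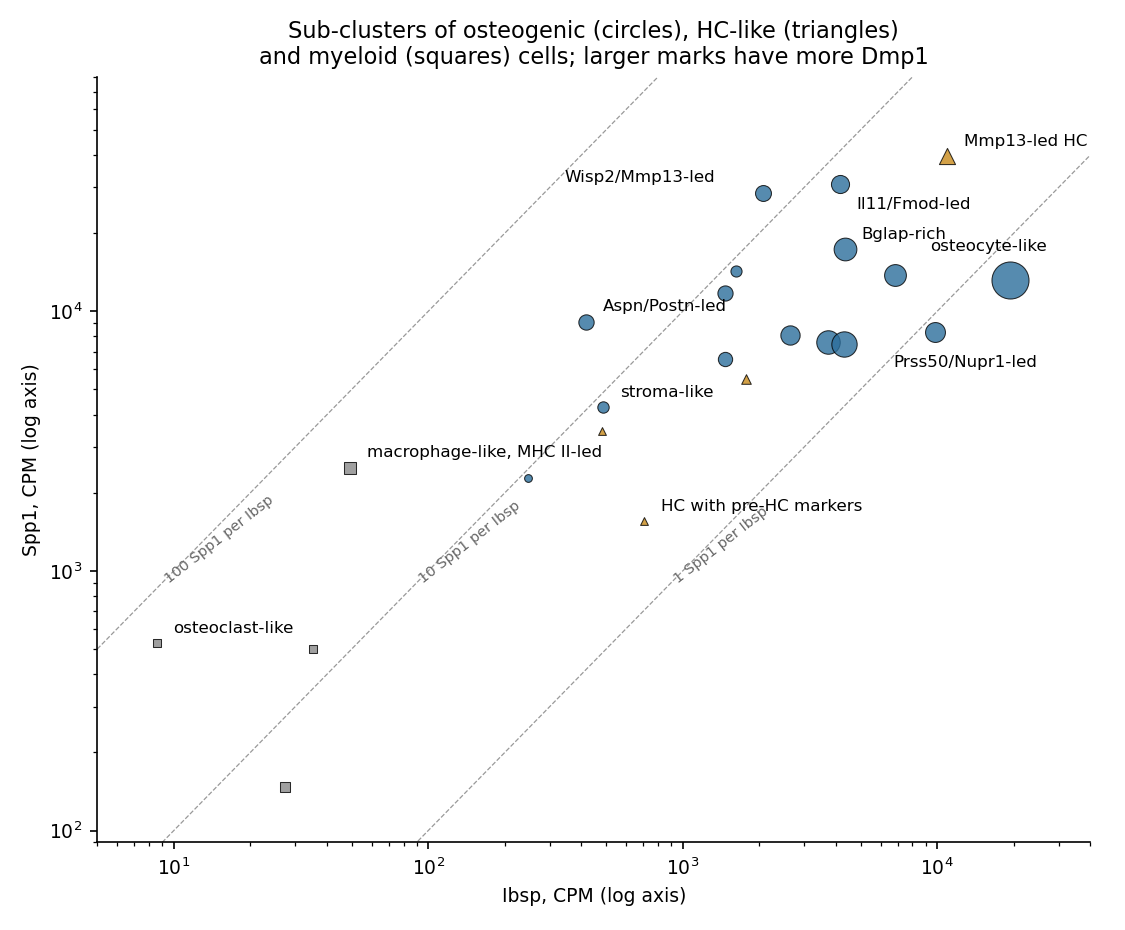
Spp1 against Ibsp (CPM, both log axes) in sub-clusters of osteogenic (circles), HC-like (triangles) and macrophage- or osteoclast-like (squares) cells with an Ibsp UMI; marks grow with Dmp1 and dashed lines join equal numbers of Spp1 UMIs per Ibsp UMI. The osteocyte-like sub-cluster sits at 0.685 Spp1 per Ibsp and the osteoclast-like one at 61.4.

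The osteocyte-like sub-cluster held 38 cells with 1393 CPM of Phex, 374 of Pdpn and 92.1 of Sost, and 5 of 6 osteocyte markers reached 10 CPM, Fgf23 being at 0. It had the highest Dmp1 of any sub-cluster at 2235 CPM (2127 to 2347), 10.3-fold the 217 CPM of the other sub-clusters named mature. Ibsp was 2.85-fold higher, and 5.36% of 2518 genes passed 2-fold in this direction. Spp1 was level with the other mature cells, at 13201 against 13495 CPM. Mepe had 1 UMI here, 0.411-fold the level of the other sub-clusters named mature. The interval, 0.00991 to 2.57, is too wide to tell a difference. Elsewhere 17 Mepe UMIs were in 1 cell of the Il11-led sub-cluster and 12 in 6 cells of the sub-cluster led by Prss50 and Nupr1. Thinned to 5000 UMIs, 30 of 38 cells had Spp1, Ibsp and Dmp1 together, compared with 149 of 441 mature and 35 of 586 immature osteoblast-like cells. The 5 cells with the most Dmp1 held 40.8% of the Dmp1 UMIs.

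Among mature osteoblast-like cells Ibsp ran opposite to osteocalcin. The 171 cells with under 100 CPM of Bglap had 11558 CPM of Ibsp. The level was 8413 CPM in the bin from 100 to 1000, 4929 from 1000 to 5000, 3937 from 5000 to 20000 and 1706 CPM in the 69 cells above. Spp1 did not follow, with 10298 CPM in the lowest bin and 18403, 17345 and 16818 CPM in the upper 3. Dmp1 was lowest in the lowest bin, at 247 CPM, and between 365 and 547 CPM in the others. Reporter-positive cells moved along the same axis, being 101 of 171 cells in the lowest bin and 7 of 69 in the highest, and their part in the pattern was not tested.

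**Figure D4:**
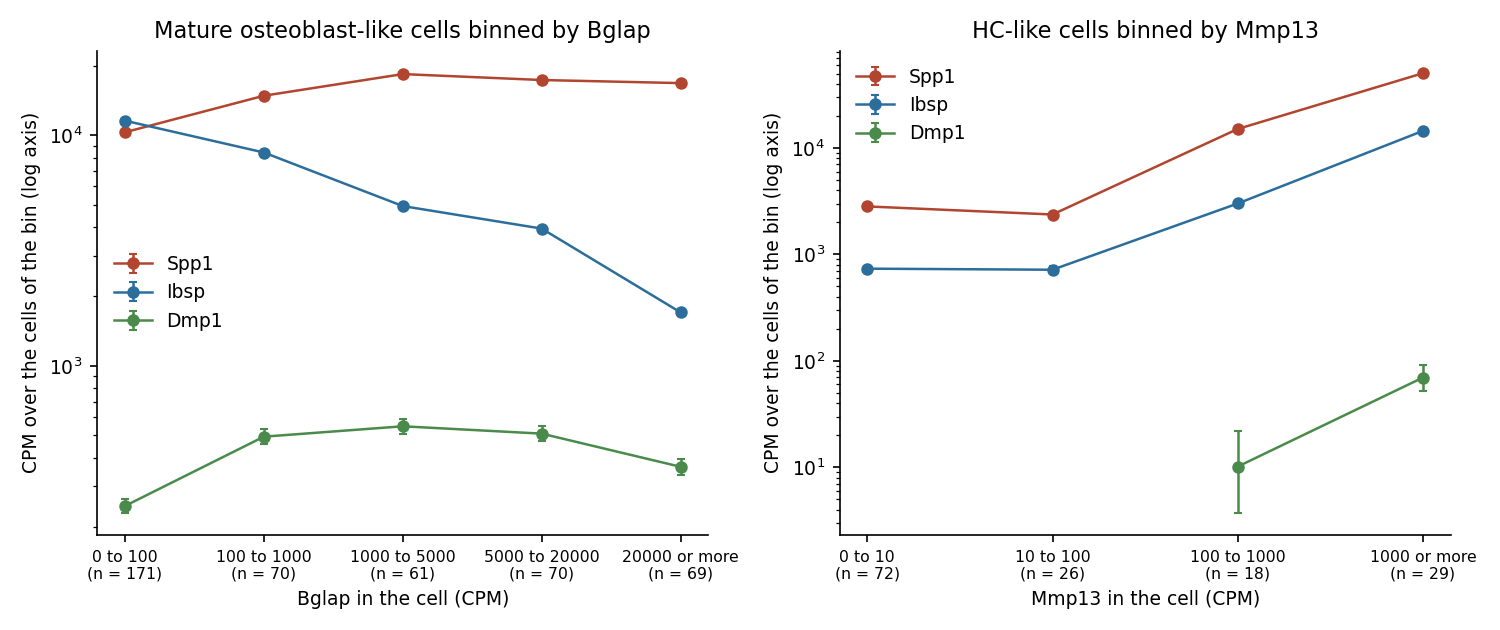
Level of Spp1, Ibsp and Dmp1 (CPM summed over the cells of each bin, log axis) in mature osteoblast-like cells binned by Bglap (left) and in HC-like cells binned by Mmp13 (right); bars are 95% Poisson intervals, n is the number of cells, and bins without a Dmp1 UMI are not drawn. Ibsp falls from 11558 to 1706 CPM on the left and rises to 14455 CPM on the right.

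The reporter was used to separate osteogenic cells that descend from HCs from the others, which it can do only in part. Cells with more than 14 WPRE UMIs, a sequence in the 3′ part of the reporter transcript, were called HC-derived. This gave 274 HC-derived and 864 other osteogenic cells, of which 77 lay between 10 and 19 WPRE UMIs, near the line. Among the HC-like cells themselves, 99 of 145 passed it. The study set the line to match its measured share of tdTomato-positive HCs, so this number was in part fixed by that choice. The other osteogenic cells can include HC descendants without a detected reporter, and the study also names limits in detecting tdTomato transcripts. Ibsp was 7265 CPM in HC-derived and 2946 CPM in other cells, a log2 difference of 1.30 (1.28 to 1.32). Only 0.451% of 2880 genes were at least 2-fold higher in HC-derived cells, and Ibsp was 1 of these 13. Spp1 and Dmp1 were near equal, at 12345 against 13242 CPM and at 205 against 215 CPM. Without the 5 cells with the most Dmp1 on each side, the Dmp1 difference was -0.95 on the log2 scale. Mepe had 11 UMIs in HC-derived and 48 in other osteogenic cells. HC-derived cells were also deeper, with a median of 15419 against 12274 UMIs, and the part of depth in the difference was not tested. The Ibsp difference was already known from these cells, so it is not independent evidence.

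The Ibsp difference was smaller within the osteoblast-like classes and when sub-clusters were combined (plot by class and sub-cluster). It was 0.93 on the log2 scale within the mature class and 1.04 within the immature class, and 0.62 within sub-clusters. The classes still mix sub-clusters: the Aspn-led one, lowest in Ibsp of those named osteoblast-like, held 0.73% of the HC-derived and 20.6% of the other osteogenic cells. In the Bglap-rich mature sub-cluster, Ibsp was 11147 CPM in 16 HC-derived and 3375 CPM in 115 other cells. In the sub-cluster led by Prss50 and Nupr1, where 69 of 107 cells were HC-derived, the levels were 9571 and 10423 CPM. In the Mmp9-led immature sub-cluster, with 35 of 64 cells HC-derived, they were 1587 and 1650.4 CPM, with overlapping intervals. Stroma-like cells went the other way, with 87.8 CPM in 19 HC-derived and 339 CPM in 76 other cells. This rests on few cells, since 5 stroma-like cells held 69.9% of the 312 Ibsp UMIs, and the HC-derived side had 20 UMIs. Spp1 was lower in HC-derived than in other mature cells (10227 and 16741 CPM) and higher in HC-derived than in other immature cells (18776 and 11416 CPM), which offset each other in the sum. Dmp1 in the mature class was 307 and 434 CPM.

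**Figure D5:**
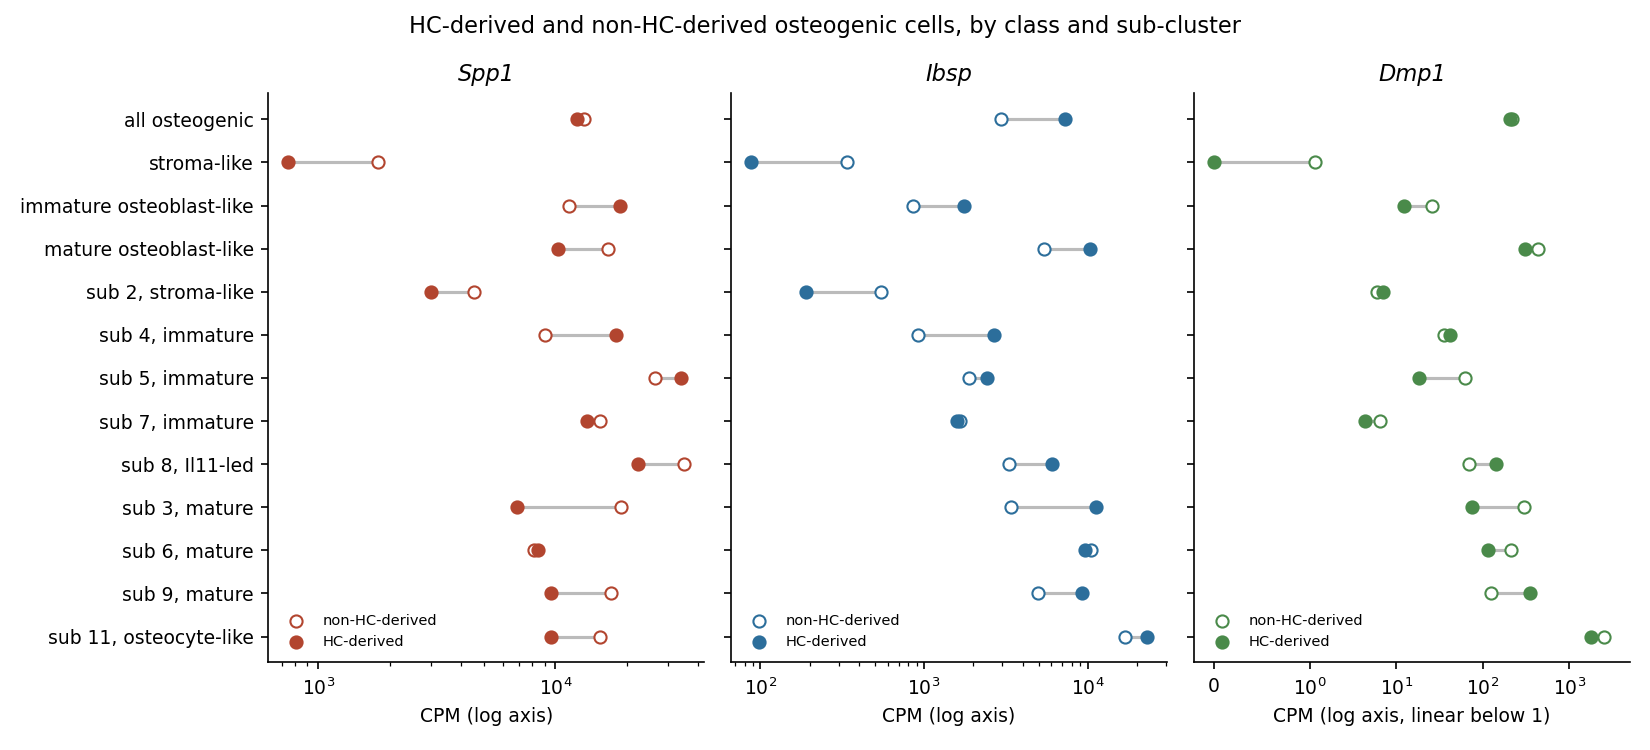
Spp1, Ibsp and Dmp1 (CPM, log axis, linear below 1 for Dmp1) in HC-derived (filled) and non-HC-derived (open) osteogenic cells, for all cells, the 3 classes and the 9 named sub-clusters with at least 10 cells of each kind. Ibsp is higher in HC-derived cells over all osteogenic cells (7265 against 2946 CPM) and lower in stroma-like cells, where 5 cells held 69.9% of the Ibsp UMIs.

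In HC-like cells, 99 of 145 passed the reporter threshold. Spp1 was 14972 CPM in these and 3043 CPM in the other 46, and Ibsp was 4177 and 517 CPM. The 2 sides differ in sub-clusters: 35 of the 40 Mmp13-led cells passed the threshold, against 8 of the 31 that took the pre-HC name. All 60 Dmp1 UMIs of the class were in reporter-positive cells. Of the 5 reporter-positive pre-HC-like cells, 2 held most of the Spp1 of that class, as given above.

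Osteoclasts bind osteopontin through the αvβ3 integrin, and Spp1 is known from these cells too. In osteoclast-like cells Spp1 was 514 CPM (493 to 537), 8.67-fold the erythroid-like level but 1 part in 28 of that in mature osteoblast-like cells. The thinned share with Spp1 was 58.4% against 21.6% in erythroid-like cells (86.1% and 48.4% before thinning, median depths 24096.5 and 12492 UMIs). Ibsp was seen in 2.41%, no more than in erythroid-like cells, and is read as background. The 19 osteoclast-like cells with at least 1000 CPM of Spp1 held 58.7% of the UMIs of the class. Ibsp was found in 5 of them and in 29 of the 166 cells of the class. None was marked as a doublet, but no cell of the whole class was, so this does not set them apart. Col1a1, the main collagen of osteoblasts, was 99.4 CPM in these 19 cells against 124 CPM in the other osteoclast-like cells. Whether their Spp1 came from other cells was not tested.

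Macrophage-like cells had 1283 CPM (1242 to 1325) of Spp1, 2.5-fold the osteoclast-like level, but 5 of 229 cells held 68.5% of it. Without the 5 highest cells of each class the log2 difference fell from 1.32 to 0.13. The median macrophage-like cell had 106 CPM and the median osteoclast-like cell 199.8 CPM, in the opposite order to the sums. Within the macrophages, Spp1 was 2496 CPM in a sub-cluster led by MHC class II genes and 147 CPM in a sub-cluster led by Vcam1 and Mrc1, marks of resident macrophages. Their medians over cells were 148 and 67.6 CPM. Ibsp was seen in 8.93% of macrophage-like cells (5.54 to 13.5%), an interval that overlaps the erythroid-like one. Its level was higher, at 35.5 CPM (29 to 43.1) against 14.7 CPM (11.8 to 18) in erythroid-like cells. Of the macrophage-like Ibsp UMIs, 63.1% were in 5 cells.

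The number of Spp1 UMIs per Ibsp UMI varied widely between cell types. It was 2.01 in mature osteoblast-like, 3.69 in HC-like and 12.5 in immature osteoblast-like cells, 25.7 in osteoclast-like and 36.1 in macrophage-like cells. Among the osteogenic sub-clusters it ran from 0.685 in osteocyte-like cells and 0.848 in the cells led by Prss50 and Nupr1 to 21.8 in the Aspn-led immature cells. In the osteoclast-like sub-clusters it was 61.4, on 20 Ibsp UMIs, and, in cycling cells, 14.2. In the cycling sub-cluster 1 cell held 48 of the 62 Ibsp UMIs. The whole osteoclast-like class had 82, so its ratio and the gap between its sub-clusters rest on that cell. Over all cells kept the ratio was 3.51, and in erythroid-like cells 4.04 (3.21 to 5.13). The osteoclast-like and macrophage-like ratios lay above the erythroid-like interval, as did those of resting (16.5) and proliferating chondrocyte-like (14.5), neutrophil-lineage (14.5) and monocyte- or dendritic-like cells (9.83), among others. The macrophage-like value rests on the 5 cells that held 68.5% of its Spp1 UMIs. In resting and proliferating chondrocyte-like cells the 5 highest cells held 55.6% and 93.7%. In neutrophil-lineage and monocyte- or dendritic-like cells they held 65.5% and 33.3%.

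Across the 28 clusters, the genes with profiles most like each member differed between the abundant and the late members. The values are Pearson correlations of log2(CPM + 10) over 7198 genes, and the clusters share 1 library and its depth, so they describe and carry no p. Spp1 was most like Ibsp (0.91), Hpgd (0.88), which breaks down prostaglandins, and Mmp13 (0.86). Ibsp was most like Hpgd (0.91), Spp1, Mlip (0.85), Irx5 (0.85), a homeobox gene of which this mouse carries 1 mutant copy, and Alpl (0.84), tissue-nonspecific alkaline phosphatase. Dmp1 was most like Ifitm5 (0.94), a mineralizing-osteoblast membrane protein, and the osteocalcin genes Bglap2 (0.93) and Bglap (0.92). Mepe followed Lipc (0.99) and Chst13 (0.94), on very few UMIs. Among the members, Dmp1 and Mepe correlated at 0.85, Ibsp and Dmp1 at 0.77, and Spp1 and Mepe at 0.45. The values with Mepe also rest on very few UMIs, 56 of its 62 being in the mature osteoblast-like class.

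A list of 39 genes that act with these proteins was followed alongside, of which 31 reached 50 CPM in some class. The highest class was a stroma- or osteoblast-like one for 15 of these, a chondrocyte-like one for 3, osteoclast- or macrophage-like cells for 6 and another class for 7. Acp5, Ctsk, Mmp9, Itgb3, Bglap, Bglap2, Smpd3, Runx2, Slc20a2, Phex, Sost, Fgf23 and Mef2c were also markers used to name the classes. The highest class of these genes is in part set by the naming, and no such share was taken over all genes. Of the receptors, 7 of 9 reached 50 CPM, and they were spread widely. Itgav, the αv integrin chain that binds the RGD sequence, was highest in osteoclast-like cells (411 CPM), and Cd44, a receptor for osteopontin, in monocyte- or dendritic-like cells (1109 CPM) with 383 CPM in osteoclast-like and 306 CPM in osteocyte-like cells. Itgb3, the β3 partner, stayed below 50 CPM in each class, with 22.5 CPM in immature osteoblast-like and 12.7 CPM in osteoclast-like cells. Of the 4 modifying enzymes, Fam20c, the kinase that phosphorylates these proteins, was highest in macrophage-like cells (239.8 CPM) and reached 334 CPM in the osteocyte-like and 261 CPM in the Mmp13-led HC-like sub-cluster. Acp5, the phosphatase of osteoclasts that removes phosphate from osteopontin, was 3024 CPM in osteoclast-like and 27.8 CPM in mature osteoblast-like cells.

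Of 8 proteases, 6 reached 50 CPM. Bmp1, which cleaves the Dmp1 precursor, was highest in mature osteoblast-like cells (646 CPM). Phex, an endopeptidase that degrades the acidic peptides of this family, was 220.5 CPM there and 19.6 CPM in HC-like cells. Mmp9 was 1314 CPM in immature osteoblast-like and 1299 CPM in osteoclast-like cells, and Ctsk, the main collagenase of osteoclasts, 2288 CPM in the latter. Of 11 mineral and phosphate genes, 8 reached 50 CPM. Alpl was highest in immature osteoblast-like cells (1074 CPM) and similar in mature osteoblast-like (489) and HC-like cells (481 CPM). Ank, which exports pyrophosphate, was highest in HC-like cells (78.6 CPM), and Smpd3, a sphingomyelinase needed for mineralization, in pre-HC-like cells (1288 CPM), before Spp1 and Ibsp were high. Of 7 transcription factors, 6 reached 50 CPM. Runx2, the master factor of osteoblasts and of hypertrophy, was 206 CPM in immature osteoblast-like, 150.1 in mature and 98.2 CPM in HC-like cells. Sp7, which acts after Runx2, was highest in mature osteoblast-like cells (102 CPM), and Mef2c in pre-HC-like cells (551 CPM), with 914 CPM in the osteocyte-like sub-cluster.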

How the data were processed

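Cells of the tibia of 1 mouse were profiled by droplet single-cell RNA-seq. Per the labels, the deposited values are UMI counts per gene and barcode that the authors made with Cell Ranger 3.1.0 on mm10 with tdTomato and WPRE added, and analysed with Seurat 3. For the annotation release, the sources used here name none. The 4 sequencing entries share the same table and were treated as 1 sample, and P56 data were not analysed here. Depth was 158281984 UMIs over 14181 barcodes, with a median of 8235. Barcodes with at least 1600 genes (the study's minimum), at most 10% mitochondrial and at most 50% ribosomal protein UMIs were kept, the last 2 limits being chosen here. Of the 14181, 5476 failed the gene minimum and 449 the other limits, leaving 8256 cells with 137265974 UMIs.

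Counts were scaled to 10000, and 2000 variable genes, without the members and the reporter, gave 30 components, a graph of 20 neighbours and Leiden clusters at resolution 1 (scanpy 1.11.5, leidenalg 0.10.2, Python 3.11.15). Clusters were named from 22 marker lists, with limits chosen once clusters were in view, and the study's names may differ. Osteogenic, myeloid and HC-like cells were clustered again. Scrublet marked 588 barcodes (4.15%) as doublets, 460 of them kept, and an alternative left these out. Levels are UMIs of a gene per 1000000 UMIs of a class, with exact Poisson intervals, and shares have exact binomial (Clopper-Pearson) intervals at 95%, which cover counting error only. A ratio used an offset of 1 CPM for the share of genes past 2-fold, over genes with 50 CPM in either group and 100 UMIs. HC-derived cells had more than 14 WPRE UMIs. The counting intervals and the 2-fold calls were tried on simulated Poisson counts of whole classes. These have no spread between cells, so they cannot show how the intervals hold where few cells carry a sum. Clustering, naming, doublet marking and thinning were not simulated. Named genes were the 4 members, their flanking genes, the genes most like them and the fixed list of 39 partners, and other genes appear only as markers or leading genes of sub-clusters. The members and lists were chosen with earlier results of these data known. With 1 animal no test between groups was made. The alternatives were other filters, clusterings, sums and reporter calls.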

Additional observations from a re-analysis of the deposited data

How the results depend on the processing

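Cells left out, another clustering and another way of summing were tried, 1 at a time, for a set of log2 ratios and for the class levels. Levels of sub-clusters and bins, thinned shares, Spp1 per Ibsp and differences by origin within a class were not tried in this way. Of 132 alternative values of the log2 ratios, 117 kept their sign. Spp1 in HC-like over mature osteoblast-like cells (-0.31) was 0.25 without doublet-marked barcodes, 0.086 at resolution 1.5, 0.27 with the members kept for clustering, -0.82 at 5% mitochondrial UMIs, -0.078 as a mean over cells and -0.35 over reduced totals. Ibsp under the same 6 was -0.90, -0.78, -0.87, -2.36, -0.90 and -1.22. At resolution 0.6 and with 3000 variable genes no cluster took the HC-like name, so these ratios have no value there. Osteoclast-like over mature osteoblast-like Spp1 (-4.81) was -4.63 without doublet-marked barcodes, -4.45 at 5% mitochondrial UMIs, -4.64 at resolution 0.6, -4.95 at resolution 1.5, -4.62 with 3000 variable genes, -4.58 with the members kept, -4.90 as a mean over cells, -4.98 with the erythroid-like level subtracted and -5.14 without the 5 highest cells. Dmp1 in mature over immature cells was 2.67 without doublet-marked barcodes, 2.86 at 5% mitochondrial UMIs, 2.80 at resolution 0.6, 3.56 at resolution 1.5, 2.47 with 3000 variable genes, 2.70 with the members kept and 4.31 without the 5 highest cells. Mepe was 0.87 without doublet-marked barcodes, -0.13 at 5% mitochondrial UMIs, 1.36 at resolution 0.6, -0.024 with 3000 variable genes and 0.83 with the members kept, in part below 0. HC-derived over other osteogenic Ibsp was 1.35 at 5% mitochondrial UMIs, 1.33 at resolution 0.6, 1.52 with 3000 variable genes, 1.34 as a mean over cells, 1.16 by tdTomato, 1.25 above 4 WPRE UMIs and 1.27 without the 5 highest cells. The settings by Col10a1, without the 5 highest cells and within sub-clusters were chosen after seeing the data. With HCs taken as chondrocyte-like cells of at least 5000 CPM of Col10a1, Spp1 and Ibsp were -0.80 and -2.05. Without the 5 cells with most UMIs in each class they were -0.59 and -1.96, and Mepe had no value, since the immature class then held no UMI. Combined within sub-clusters, the Ibsp difference by origin was 0.62. Among the secondary ratios, Spp1 in mature over immature cells turned to -0.42 without doublet-marked barcodes, -0.15 at 5% mitochondrial UMIs, -0.014 at resolution 1.5, -0.62 with 3000 variable genes and -0.32 with the members kept, Spp1 by origin to 0.015 without doublet-marked barcodes, 0.0035 at resolution 0.6 and 0.25 with 3000 variable genes and Dmp1 by origin to 0.0027 at resolution 0.6 and 0.17 by tdTomato. Dmp1 by origin was -0.95 without the 5 highest cells. The cause of these changes was not tested. Of 212 alternative values for class levels of at least 50 CPM, 153 stayed within 1.5 times of the main value. Depth limits Mepe throughout and Dmp1 outside the osteoblast-like classes. No paired analysis was possible because there was 1 library and no test.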

Other observations

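Members were also counted in the barcodes that the filters had left out. The 5476 barcodes under the gene minimum, with a median of 2164 UMIs, had 758 CPM of Spp1, 171 CPM of Ibsp and 17.2 CPM of Dmp1, and they held 2 Mepe UMIs. The 449 barcodes above the mitochondrial or ribosomal limit, with a median of 6819 UMIs, had 4067 CPM of Spp1, 872 CPM of Ibsp and 38.6 CPM of Dmp1. They held 16 Mepe UMIs, against 62 in all 8256 cells kept.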
